A study of Mus musculus with 6 samples.

Results

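Phf11a, Phf11b, Phf11c and Phf11d are the 4 Phf11 genes of mouse chromosome 14, and they are 4 of the 54532 genes in the deposited table. They were chosen by the log2 fold change of Phf11b, one of the largest rises between the 2 groups of libraries, so the values of all 4 in that comparison are given as a description, with no test. The 6 RNA-seq libraries came from cultured aortic smooth muscle cells of wild-type mice, isolated from abdominal aortas per the study's methods. In 3 libraries, labelled Ad-Con, the cells had received an adenoviral vector with a control plasmid, and in the other 3, labelled Ad-PDK4, the vector carried a plasmid to overexpress pyruvate dehydrogenase kinase 4, the mitochondrial kinase that switches off the pyruvate dehydrogenase complex. Per the study, the cells of both groups had also been exposed to angiotensin II, which the labels do not mention. The comparison asks which transcripts differ with PDK4 overexpression in these cells.

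PHF11 proteins carry an extended PHD finger, a zinc-binding fold that many chromatin proteins use to contact histones or DNA. The human gene, which is single, was first studied as a candidate gene for atopic disease. Its protein is known as a partner of NF-kB at cytokine promoters and as a factor that works with the single-strand binding protein RPA when broken DNA ends are resected. In the mouse the gene has been copied into a cluster, and Phf11 genes are counted among the genes that type I interferon induces. Type I interferon binds the receptor pair Ifnar1 and Ifnar2, and transcription factors that include Stat2 and Irf9 then bind interferon-stimulated response elements (ISREs) in the promoters of target genes.

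The files held 17588942 to 21861872 reads in genes per library, and 1 read over 1 kb was worth 0.0453 to 0.0571 FPKM (fragments per kilobase of gene, scaled to library size). The targeted gene went against the labels: Pdk4 had 9.50, 10.4 and 10.1 FPKM in the Ad-Con libraries and 7.67, 7.40 and 7.38 FPKM in the Ad-PDK4 libraries, with a log2 difference of -0.42 (limma, adjusted p = 0.0011). Whether the plasmid's transcript would be counted as mouse Pdk4 is not given in the sources used here. The study's methods describe a PDK4 plasmid cloned with the primers that it lists for mouse PDK4. They do not say that the adenoviral vector carried this insert. Every direction below is therefore between libraries by their labels. The study calls the 3 libraries of a group biological replicates, without saying whether they came from separate cultures or animals. P-values therefore measure only the spread between these libraries, part of which may be technical. Among smooth muscle markers, Acta2 was abundant, but Myh11, the defining myosin of contractile smooth muscle, had at most 10 reads in any library. Tagln, Cnn1 and Des were also scarce, each under 0.5 FPKM on average. Their means were 0.341, 0.466 and 0.186 FPKM under the Ad-Con label and 0.292, 0.247 and 0.0468 FPKM under the Ad-PDK4 label. The 6 markers summed to 86.2 to 88.1 FPKM under the Ad-Con label and 42.7 to 47.3 FPKM under the Ad-PDK4 label. Acta2 carried this difference, with 78.0 ± 0.95 FPKM against 36.2 ± 2.4 FPKM (SD, n = 3 each), while Smtn, the other tested marker, had 8.32 ± 0.114 FPKM against 8.44 ± 0.445 FPKM. In these bulk samples, fewer cells of a type and less RNA per cell cannot be told apart.

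The 4 genes lie on the minus strand between bases 59276913 and 59395381 of chromosome 14 (GRCm38), in the order Phf11a, Phf11b, Phf11d and Phf11c. The promoter windows of the 4 genes, 250 bases before to 50 bases after the start, are shown because they differ in the words that interferon-activated factors bind. They were taken from RefSeq (GRCm38.p6, minus strand) at chr14:59297473-59297772 for Phf11a, chr14:59341281-59341580 for Phf11b, chr14:59365441-59365740 for Phf11d and chr14:59393463-59393762 for Phf11c. Capitals mark the ISRE core GAAANNGAAA in Phf11a and Phf11b and the shorter word GAAAC, which is a part of many ISREs, in Phf11d. Phf11c held neither word on either strand and has no capitals.
Phf11a: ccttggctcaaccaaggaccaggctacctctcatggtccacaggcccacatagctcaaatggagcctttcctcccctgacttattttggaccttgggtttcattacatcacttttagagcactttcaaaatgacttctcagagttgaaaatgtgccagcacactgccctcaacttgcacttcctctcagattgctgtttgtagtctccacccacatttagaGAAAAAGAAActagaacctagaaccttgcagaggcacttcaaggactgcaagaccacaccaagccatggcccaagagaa
Phf11b: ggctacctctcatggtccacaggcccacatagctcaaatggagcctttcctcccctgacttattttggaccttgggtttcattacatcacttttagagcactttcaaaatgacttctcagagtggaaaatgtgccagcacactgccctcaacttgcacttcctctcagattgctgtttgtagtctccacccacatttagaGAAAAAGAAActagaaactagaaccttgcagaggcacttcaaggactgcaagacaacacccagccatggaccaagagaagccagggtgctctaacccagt
Phf11d: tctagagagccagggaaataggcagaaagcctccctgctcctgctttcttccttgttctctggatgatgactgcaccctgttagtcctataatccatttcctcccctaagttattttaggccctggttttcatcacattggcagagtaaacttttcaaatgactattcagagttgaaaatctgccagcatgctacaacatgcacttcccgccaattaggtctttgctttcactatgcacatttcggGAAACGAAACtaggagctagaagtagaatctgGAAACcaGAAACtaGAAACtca
Phf11c: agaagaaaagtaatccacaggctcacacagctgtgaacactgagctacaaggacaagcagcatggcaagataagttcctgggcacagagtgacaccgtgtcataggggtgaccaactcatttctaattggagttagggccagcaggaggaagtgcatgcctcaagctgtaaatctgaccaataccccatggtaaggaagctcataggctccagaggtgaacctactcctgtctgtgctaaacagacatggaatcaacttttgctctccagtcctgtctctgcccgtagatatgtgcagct

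Counted from the RefSeq starts, the ISRE core stood 29 to 20 bases before the start in Phf11a and 50 to 41 bases before it in Phf11b. The RefSeq start of Phf11b lies inside the gene as the deposited table bounds it, which ends at base 59341351. The difference in position between the 2 genes therefore depends on the start used. The letters were the same in both genes, and the windows of the 2 genes matched at 98.2% of 279 aligned bases, so the 2 matches share a sequence origin. Among the 32851 RefSeq promoter windows of mouse genes, 3.44% held this core on either strand. The Phf11d window aligned to that of Phf11a over 170 bases at 76.5% identity and held no ISRE core. It held 5 copies of GAAAC within the last part of the window, against 3 in Phf11b, 2 in Phf11a and 0 in Phf11c, counted on both strands. In Phf11a and Phf11b 1 of these copies overlaps the end of the ISRE core. Among all windows 13.5% held at least 2 copies of GAAAC, 3.2% at least 3 and 0.6% at least 4; this word was chosen after the sequences had been seen. The STAT dimer word TTCNNNGAA, in 8.3% of all windows, and the NF-kB consensus, in 4.51%, were found in none of the 4 windows. The RefSeq start used for Phf11c lies inside the gene as the deposited table bounds it, which ends at base 59395381. Its window aligned to the others over only 15 to 19 bases. The absence of these words in the Phf11c window therefore depends on the start used.

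Phf11d (ENSMUSG00000068245, bases 59347407 to 59365470) was the most abundant of the 4 under both labels. It had 1.68, 1.85 and 2.34 FPKM in the Ad-Con libraries and 50.6, 49.9 and 58.3 FPKM in the Ad-PDK4 libraries, from 146 to 191 and 3926 to 5794 reads. The groups did not overlap, and every library labelled Ad-PDK4 was far above every control library. The mean was 1.96 ± 0.343 FPKM against 52.9 ± 4.68 FPKM (SD, n = 3 each), a ratio of 27.0, and the log2 fold change on the log2(FPKM + 0.1) scale was 4.70 ± 0.12 (SE).

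Phf11b (ENSMUSG00000091649, bases 59320964 to 59341351) had the largest log2 fold change of the 4. It was near 0 in the Ad-Con libraries, with 0.0830, 0.0481 and 0.0932 FPKM, and had 20.9, 20.5 and 22.4 FPKM in the Ad-PDK4 libraries. These values rest on 1 or 2 reads in each control library and on 425 to 585 reads in each library labelled Ad-PDK4, again with no overlap. Since the control libraries were under a floor of 3 reads, the ratio is a lower bound: Phf11b was at least 156-fold higher in the mean of the libraries labelled Ad-PDK4, where it reached 21.3 ± 0.974 FPKM (SD, n = 3). Its log2 fold change was 6.94 ± 0.13 (SE) with a pseudocount of 0.1, and it moved from 4.37 with a pseudocount of 1 to 8.01 with a pseudocount of 0.01.

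Phf11a (ENSMUSG00000044703, bases 59276913 to 59297522), the closest copy of Phf11b, was less abundant. In the Ad-Con libraries it had 0, 1 and 0 reads, and in the Ad-PDK4 libraries 48, 50 and 71 reads. This corresponds to 0, 0.0421 and 0 FPKM against 1.95, 2.11 and 2.37 FPKM, with no overlap. By the same floor Phf11a was at least 18.0-fold higher under the Ad-PDK4 label, at 2.14 ± 0.215 FPKM (SD, n = 3). Its log2 fold change of 4.31 ± 0.34 (SE) depended on the pseudocount even more, at 1.63 with a pseudocount of 1 and 6.95 with 0.01.

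Phf11c (ENSMUSG00000091144, bases 59380833 to 59395381) differed least. It had 0.227, 0.214 and 0.239 FPKM in the Ad-Con libraries and 0.731, 0.793 and 0.419 FPKM in the Ad-PDK4 libraries, from 13 to 16 and 32 to 48 reads. The groups did not overlap, although Ad-PDK4 replicate 3 lay nearest to the control range. The ratio of the means was 2.85, with 0.227 ± 0.0126 FPKM against 0.648 ± 0.2 FPKM (SD, n = 3 each). Its mean over the 6 libraries, 0.437 FPKM, was under the minimum of 0.5 FPKM for the fit across genes, and its log2 fold change of 1.15 ± 0.27 (SE) comes from the fit without that minimum.

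**Figure D1:**
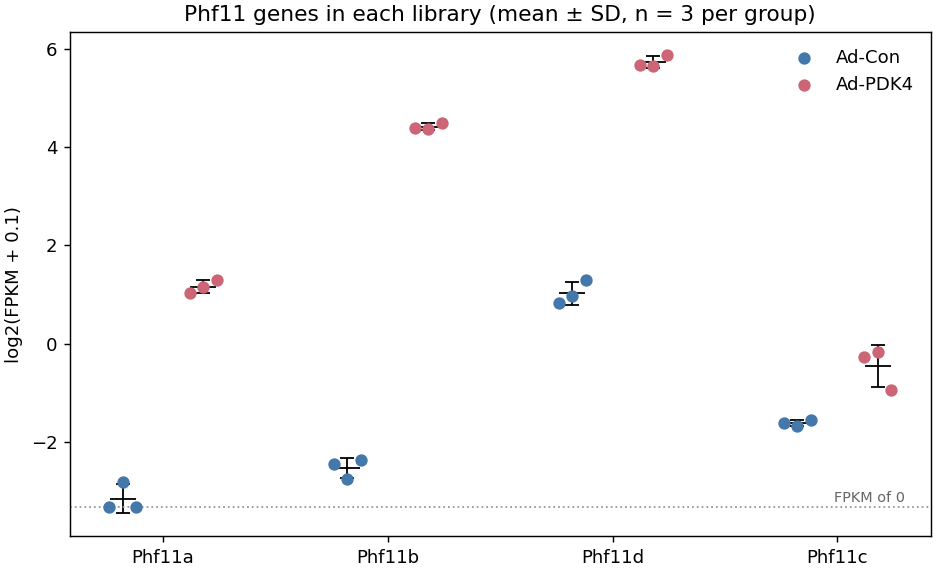
FPKM of the 4 Phf11 genes in each library, on a log2(FPKM + 0.1) axis, with a point per library and bars for the group mean and SD (n = 3) on that scale. In all 4 genes the 3 Ad-PDK4 points lie above the 3 Ad-Con points, and the gap is widest in Phf11b, from at most 0.0932 FPKM to at least 20.5 FPKM.

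Among the 13423 genes with a mean of at least 0.5 FPKM, Phf11b ranked 6, Phf11d 31 and Phf11a 40 by the size of the rise. Phf11a and Phf11b entered the fit through the libraries labelled Ad-PDK4 alone, so they had to differ there. For scale, 21.8% of the tested genes were higher under the Ad-PDK4 label at an adjusted p below 0.05 (limma, Benjamini-Hochberg), 20.8% were lower, 3.95% were higher and changed at least 2-fold, and 27.8% had all Ad-PDK4 libraries above all Ad-Con libraries. Nothing is read from where the Phf11 genes fall among these, since this contrast chose them. Over all these genes the log2 fold changes had a median of -0.0031.

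The order of the 4 genes by FPKM differed between the labels. In the Ad-Con libraries it was Phf11d, Phf11c, Phf11b and Phf11a, and in the Ad-PDK4 libraries Phf11d, Phf11b, Phf11a and Phf11c. By FPKM, no library of a gene overlapped those of the next gene in either order. In the Ad-Con libraries Phf11b and Phf11a were both under the floor of 3 reads, so their order there is not a measurement. Phf11d exceeded the next gene by 8.63-fold under the Ad-Con label and by 2.49-fold under the Ad-PDK4 label. The 4 genes together had 1.99, 2.15 and 2.67 FPKM in the Ad-Con libraries and 74.2, 73.3 and 83.5 FPKM in the Ad-PDK4 libraries, a ratio of means of 33.9.

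Within that sum, Phf11d went from 86.0% ± 1.57 to 68.7% ± 1.01 of the cluster's FPKM (SD, n = 3 each) and Phf11b went from 3.29% ± 0.979 to 27.7% ± 0.758. Phf11c had 10.1% ± 1.24 of the FPKM under the Ad-Con label and 0.856% ± 0.311 under the Ad-PDK4 label. Phf11a stayed small, at 0.651% ± 1.13 and 2.78% ± 0.138. Counted in reads, which favour long genes, Phf11d held 89.5 to 91.8% of the cluster in the Ad-Con libraries and 88.2 to 89.4% in the Ad-PDK4 libraries. The lengths behind the FPKM differ: the table uses 4498 bases for Phf11d, which include a retained intron, while its longest coding transcript has 2666 bases, and 1184 bases for Phf11b.

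**Figure D2:**
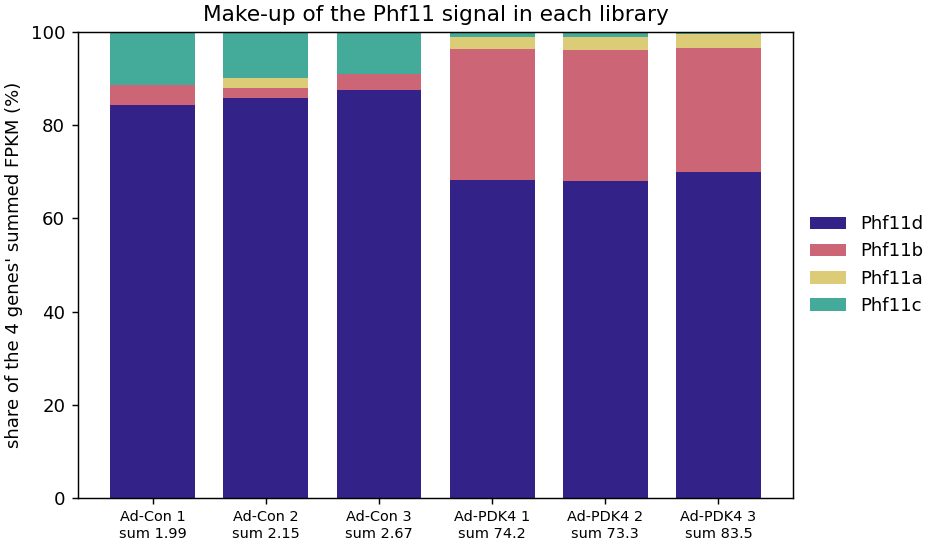
Share of the summed FPKM of the 4 Phf11 genes, in percent, as a stacked bar per library. Phf11d holds most of the sum in all 6 libraries, and Phf11b takes 27.7% on average in the Ad-PDK4 libraries against 3.29% in the Ad-Con libraries.

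The genes are close copies, which bears on how their reads were shared out. The coding sequences of Phf11a and Phf11b were identical at 97.1% of the aligned bases (804 of 828), those of Phf11a and Phf11d at 90.0% and those of Phf11b and Phf11d at 90.2%. Phf11c was the most distant of the 4, at 85.0 to 85.8% from each of the others. Of all stretches of 100 bases in the transcripts, 13.8% in Phf11b, 8.13% in Phf11a, 5.86% in Phf11c and 3.78% in Phf11d occurred in another gene of the family and in no gene outside it. A fragment from such a stretch fits more than 1 gene, and how the counting treated it is not given in the sources used here. With stretches of 150 bases the shares were 1.35% in Phf11b, 0.332% in Phf11a, 4.08% in Phf11c and 2.65% in Phf11d. The gene with the largest shared part therefore depends on the length that is read. The study's methods name paired-end reads of 150 bases, to which the shares at 150 bases lie nearer. The values of all 4 genes are uncertain for this reason, and the shares set no limit to the error. Reads of an abundant copy can weigh heavily in a scarce one. Phf11c had 32 to 48 reads in the Ad-PDK4 libraries and shared 131 stretches of 150 bases with Phf11d, which had 3926 to 5794. Whether the difference in Phf11c came from reads of Phf11d was not tested.

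**Figure D3:**
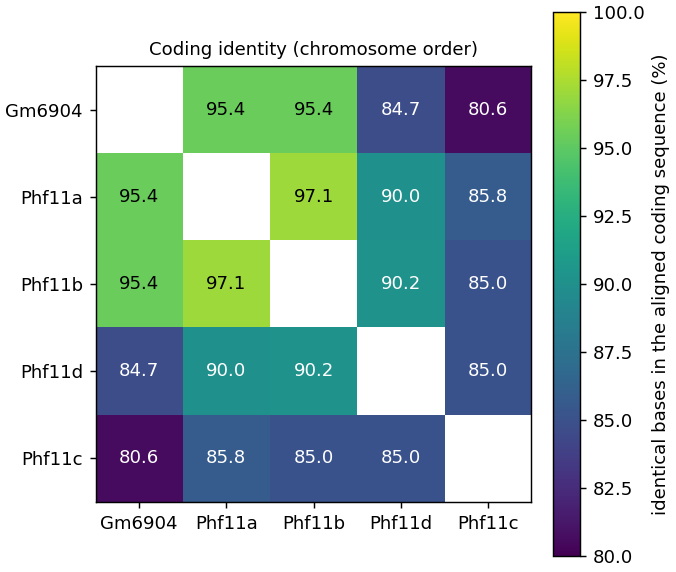
Identity of the coding sequences between the Phf11 genes and Gm6904, in percent of aligned bases, with genes in chromosome order. Phf11a and Phf11b are the closest pair of the 4 genes at 97.1%, and the values with Phf11c lie between 80.6 and 85.8%.

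The genes on both sides of the cluster showed smaller log2 fold changes than Phf11a, Phf11b and Phf11d, while Gm6904 (2.57) exceeded Phf11c (1.15). The cluster was picked for the rise of Phf11b, so this order is only a description. Of 14 neighbours within 250 kb, 7 had no read and 5 passed the minimum of 0.5 FPKM. Of these 5, 2 (Gm6904 and Setdb2) were higher under the Ad-PDK4 label and none lower (limma, adjusted p below 0.05, with 2 higher and 0 lower also at an unadjusted p below 0.05, and 0 lower with limma-voom), against 21.8% and 20.8% of all tested genes. Gm6904 passed the minimum through the libraries labelled Ad-PDK4 alone, so its call is no support and its values are a description. Gm6904, a Phf11 copy that RefSeq also names Phf11-ps and that lies 16.7 kb beyond Phf11a, had 7, 1 and 4 reads in the Ad-Con libraries and 26, 21 and 45 in the Ad-PDK4 libraries. The groups did not overlap, and the log2 fold change was 2.57 ± 0.42 (SE). Gm6904 is identical to Phf11a and to Phf11b at 95.4% of aligned coding bases, and whether its reads came from these copies was not tested.

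Setdb2, a histone lysine methyltransferase gene 6.6 kb beyond Phf11c, had 1.63, 1.73 and 2.45 FPKM in the Ad-Con libraries and 3.27, 2.41 and 3.0 FPKM in the Ad-PDK4 libraries. Here the groups overlapped, and the log2 fold change was 0.57 ± 0.18 (SE, limma, adjusted p = 0.034). The call of Setdb2 did not hold without Ad-Con replicate 1 (0.46), without Ad-Con replicate 2 (0.50), without Ad-PDK4 replicate 1 (0.48) or without Ad-PDK4 replicate 3 (0.54). On the other side, Rcbtb1, which encodes a protein with RCC and BTB domains, had 12.8 ± 0.75 FPKM against 12.1 ± 0.303 FPKM (SD, n = 3 each, limma adjusted p = 0.31). Cab39l, an adaptor of the kinase complex that activates AMPK, had a log2 fold change of 0.04 and Cdadc1, a deaminase-domain gene, one of -0.11 (limma, adjusted p = 0.72 and 0.18). Shisa2, which encodes an inhibitor of Wnt and FGF receptor maturation, was under the minimum, at 0.265 FPKM against 0.609 FPKM on average. No ISRE core was found in the promoter windows of Setdb2, Rcbtb1, Cab39l or Cdadc1.

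**Figure D4:**
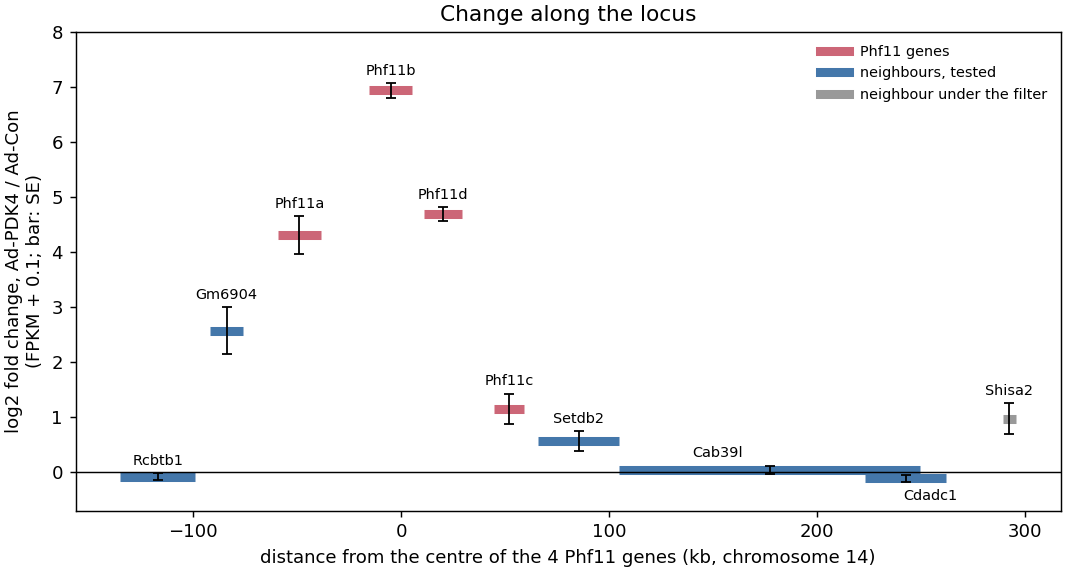
Log2 fold change between the Ad-PDK4 and Ad-Con libraries (log2(FPKM + 0.1), bars: SE) of the genes with reads around the cluster, drawn as their extent in kb from its centre, apart from 1 gene with a single read. Phf11b stands highest at 6.94, Gm6904 is at 2.57, and the tested neighbours beyond it and beyond Setdb2 lie between -0.11 and 0.04.

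Genes of the interferon pathway, the setting in which Phf11 genes are best known, were mostly higher under the Ad-PDK4 label. The earlier results of these data were known when this list was drawn up, so its direction is no independent evidence. Of 36 tested genes of 42 listed, 30 rose and none fell at an adjusted p under 0.05 (limma), with a median log2 fold change of 2.40 against -0.0031 for all tested genes, where 21.8% were higher and 20.8% lower. At an unadjusted p below 0.05, 30 were higher and 1 lower, and limma-voom called 0 lower. The 18 interferon targets were all among the higher genes, with a median of 3.33 and a range of 1.82 to 6.25. Phf11a (4.31) and Phf11d (4.70) lay within this range, Phf11b (6.94) above it and Phf11c (1.15, fit without a minimum) below it. Nothing is read from these positions, since this contrast chose the Phf11 genes. One of the 18, Mx1, with 0.135 FPKM against 2.08 FPKM on average, entered the fit through the libraries labelled Ad-PDK4 alone, so its call in these counts was set by the minimum. The largest rises were those of Zbp1, a sensor of Z-form nucleic acid (6.25, limma adjusted p = 9.6e-08), Rsad2, the antiviral enzyme viperin (5.52, limma adjusted p = 0.00011), and Cmpk2, a mitochondrial nucleotide kinase (5.22, limma adjusted p = 6.4e-07).

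Stat2 and Irf9, transcription factors that act on ISREs, also rose. Stat2 had 8.38 ± 0.187 FPKM under the Ad-Con label and 52.1 ± 3.36 FPKM under the Ad-PDK4 label (SD, n = 3 each), which is 2.62 higher on the log2 scale (limma, adjusted p = 9.6e-08). Irf9 had 9.88 ± 0.455 FPKM and 29.7 ± 0.953 FPKM (SD, n = 3 each), which is 1.58 higher on that scale (limma, adjusted p = 6.7e-07). Of the 6 tested receptor genes 3 were higher, with a median of 0.21, where 21.8% of all tested genes were higher. Ligand transcripts were nearly undetected: Ifnb1 had 0 reads in each Ad-Con library and 7, 5 and 5 reads in the Ad-PDK4 libraries, Ifne had 1, 0 and 4 reads and then 0 in each, and Ifna4, Ifng, Ifnl2 and Ifnl3 had no read in any library. Of the 13 interferon targets with a RefSeq window, 9 (69.2%) held the ISRE core that Phf11a and Phf11b also hold. Counted in the same way per gene, 83 of 344 tested genes that were at least 2-fold higher held it (24.1%), and 348 of all 9400 tested genes with a window (3.7%).

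Leukocytes express many interferon targets, and their markers were examined beside these values. Of 8 lymphocyte markers, 6 had no read in any library, with Cd3e and Cd8a of T cells among them, and the summed FPKM was 0.0459 to 0.279 in the Ad-Con libraries and 0.0535 to 0.185 in the Ad-PDK4 libraries. Of 10 macrophage markers, 5 (Ptprc, Tyrobp, C1qa, C1qb and C1qc) had no read, and the sum was 15.0 to 17.9 FPKM against 5.92 to 7.44 FPKM. Cd68 carried that sum, at 14.2 ± 1.78 FPKM against 4.24 ± 0.991 FPKM, while Csf1r (0.258 and 0.64 FPKM on average, not tested) and Lyz2 (1.51 and 1.98 FPKM, limma adjusted p = 0.079) were higher in every library labelled Ad-PDK4. The 6 endothelial markers summed to 0.634 to 0.827 FPKM against 0.924 to 1.18 FPKM, of which Kdr made up most (0.536 and 0.919 FPKM on average, limma adjusted p = 0.065), while Pecam1 and Vwf had lower means under the Ad-PDK4 label. The 5 fibroblast markers summed to 1300 to 1420 FPKM against 666 to 728 FPKM, mostly from Col1a1 (1060 and 435 FPKM on average). Of these 5, 3 were lower and 1, Dcn, was higher (0.83 on the log2 scale, limma adjusted p = 0.0004), and Pdgfra had 20.5 FPKM against 19.9 FPKM. The part of these marker differences in the Phf11 values was not tested.

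The tested genes whose profiles over the 6 libraries were nearest to each Phf11 gene were named as a description, over libraries that all these genes share. Nearest to Phf11d were Isg15, the ubiquitin-like antiviral modifier, at a distance of 0.294 between centred log2 profiles, then Oas2, an oligoadenylate synthetase gene, at 0.337, and Gm8995 at 0.459. For Phf11a they were Psmb8, an immunoproteasome subunit gene, at 0.349, Ccl7, a chemokine gene, at 0.397, and Oas2 at 0.434. Phf11b had no neighbour as close, with H2-Q7, a major histocompatibility class I gene, at 0.696, Ifi206 at 0.704 and Tgtp1, an interferon-induced GTPase gene, at 0.767. These distances rest on the pseudocount of 0.1 for Phf11a and Phf11b, whose control libraries held 0 to 2 reads. The same holds for H2-Q7 and Ifi206, at 0.0389 and 0.0107 FPKM on average under the Ad-Con label. Such distances largely follow the size of the difference between the labels, which chose the cluster. Phf11b ranked 6 of 13423 by that rise, so few genes could lie near it and nothing is read from its larger distances.

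Other genes with PHD fingers showed smaller log2 fold changes than the 3 Phf11 genes in the fit, an order that the choice of the cluster partly set. Of 25 tested of 27 listed, 6 rose and 3 fell by the same threshold (limma), where all tested genes gave 21.8% and 20.8%, and log2 fold changes ran from -0.47 to 0.83 with a median of 0.12. Jade2, a scaffold of a histone acetyltransferase complex (0.83, limma adjusted p = 5.6e-05), Phf5a, a splicing factor gene (0.53, limma adjusted p = 0.01), and Phf13 (0.40, limma adjusted p = 0.0011) rose most. Phf14 (-0.47, limma adjusted p = 0.0077), the ubiquitin ligase gene G2e3 (-0.43, limma adjusted p = 0.029) and Phf20 (-0.23, limma adjusted p = 0.012) fell. The call of G2e3 did not hold without Ad-Con replicate 1 (-0.37), Ad-Con replicate 3 (-0.39), Ad-PDK4 replicate 2 (-0.34) or Ad-PDK4 replicate 3 (-0.43).

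Human PHF11 takes part in NF-kB signalling and in DNA end resection, and genes of both processes were examined. All 5 tested NF-kB genes were higher under the Ad-PDK4 label, where 21.8% of all tested genes were, with a median log2 fold change of 0.62, led by Relb (0.99, limma adjusted p = 4.2e-05), Nfkb1 (0.68, limma adjusted p = 0.00012) and Nfkb2 (0.62, limma adjusted p = 0.00026). Rela had the smallest rise (0.17, limma adjusted p = 0.031), and its call did not hold without Ad-Con replicate 1 (0.19), Ad-Con replicate 2 (0.14), Ad-Con replicate 3 (0.19), Ad-PDK4 replicate 1 (0.19) or Ad-PDK4 replicate 2 (0.14). It was named after its value had been seen. Of 7 tested genes of DNA end resection, 3 were lower and none higher (limma, with 3 lower and 0 higher also at an unadjusted p below 0.05), against 20.8% lower among all tested genes. These were the 3 subunits of RPA: Rpa1 (-0.72, limma adjusted p = 0.00018), Rpa2 (-0.46, limma adjusted p = 0.033) and Rpa3 (-0.44, limma adjusted p = 0.049). Rbbp8, Mre11a, Rad50 and Nbn did not pass the test, with log2 fold changes from -0.17 to 0.30. The call of Rpa2 did not hold without Ad-Con replicate 2 (-0.34), Ad-Con replicate 3 (-0.44), Ad-PDK4 replicate 1 (-0.48), Ad-PDK4 replicate 2 (-0.43) or Ad-PDK4 replicate 3 (-0.48), and that of Rpa3 without Ad-Con replicate 1 (-0.43), Ad-Con replicate 3 (-0.34), Ad-PDK4 replicate 2 (-0.30) or Ad-PDK4 replicate 3 (-0.47).

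**Figure D5:**
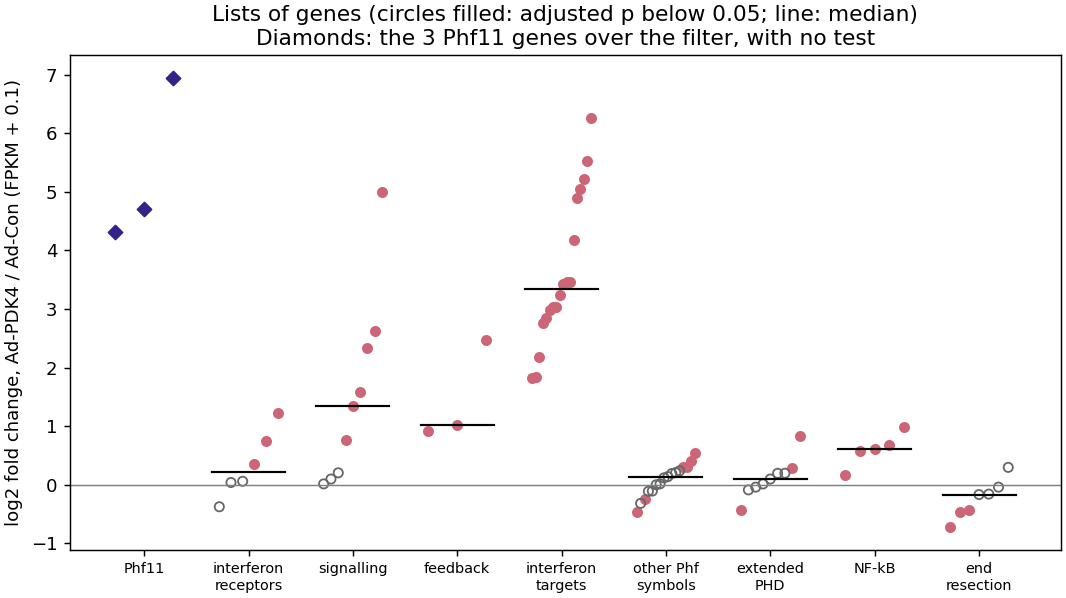
Log2 fold change (log2(FPKM + 0.1), Ad-PDK4 over Ad-Con) of the tested genes of each list, with a circle per gene, filled at an adjusted p below 0.05 (limma), and a line at the list's median. The 3 Phf11 genes over the minimum of 0.5 FPKM are diamonds with no test, at 4.31 to 6.94, and the interferon targets span 1.82 to 6.25, while the other PHD finger genes lie between -0.47 and 0.83.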

How the data were processed

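RNA-seq of 3 libraries labelled Ad-Con and 3 labelled Ad-PDK4 was analysed, with groups taken from the treatment label and replicate numbers from the sample title. The deposited table held FPKM values that the authors had derived from paired-end reads, with a column per library. The submitters' processing notes name CASAVA 1.8, fastp, HISAT2 2.0.5, featureCounts 1.5.0-p3 and DESeq2 1.20.0. They also name the build GRCm39, but 98.3% of the 54409 gene identifiers found in the GENCODE M21 annotation had its GRCm38 coordinates, so coordinates here are those of GRCm38. The labels and the methods name different library kits, and the strand setting of the counting is not given in the sources used here. FPKM multiplied by gene length gave whole reads (tolerance 0.01 reads) in each library.

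Tests ran in limma 3.58.1 (R 4.3.3) on log2 FPKM with a pseudocount of 0.1 (trend and robust empirical Bayes, no covariate) over the 13423 genes with a mean of at least 0.5 FPKM, with Benjamini-Hochberg adjustment over all of them and a call at an adjusted p below 0.05. Ad-Con and Ad-PDK4 were compared over all 6 libraries, and fold changes understate the change of low genes. The script was tested on simulated data. Libraries of a group differed beyond sampling noise (chi-square per degree of freedom of 4.17 to 11.7), so none was counted as a duplicate. SD and SE values measure the spread between libraries. Ratios given as at least a value set the control level at a floor of 3 reads in each library, which is no confidence limit. The 4 Phf11 genes and all lists were chosen with earlier results of these data known. Named were the Phf11 genes, neighbours within 250 kb with a mean of at least 0.5 FPKM, the 3 largest significant rises and falls of each list, the interferon ligands, Stat2 and Irf9, the 3 tested genes at the smallest Euclidean distance to each Phf11 gene in the fit, and Pdk4. Shisa2, Mx1, Rela and the single markers were added after their values were seen, and some genes covered by this rule or by the marker lists are not reported here by name. Promoter windows came from RefSeq, where all 4 Phf11 genes matched by symbol, and identities were computed with Biopython 1.88 on GENCODE transcripts. The 15 alternatives comprised other pseudocounts and minimum levels, rescaled FPKM (TPM), quantile normalization, no trend or robust step, a replicate block, limma-voom on the recovered reads and each library left out.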

Additional observations from a re-analysis of the deposited data

How the results depend on the processing

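Phf11a, Phf11b and Phf11d kept their direction under each alternative that gave them a value. The pseudocount moved the log2 fold change most, to 1.63, 4.37 and 4.19 with a pseudocount of 1 and, for Phf11a and Phf11b, to 6.95 and 8.01 with 0.01; limma-voom gave 6.26 and 7.80 for these genes. With a library left out they ranged from 4.23 to 4.48, 6.83 to 7.02 and 4.6 to 4.83. Phf11a gave no value at a minimum mean of 5 FPKM, and Phf11c only with no minimum. Of 32 named genes that are no member of the cluster, 27 kept direction and side of the threshold in each of the 15 alternatives that gave them a value; the exceptions were Setdb2, Cab39l, G2e3, Rpa2 and Rpa3.

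The count of higher neighbours, 2, became 1 with no minimum, 0 at a mean of at least 5 FPKM, 1 without trend or robust, and 1 to 2 with a library left out. Lower interferon pathway genes went from 0 to 1 without trend or robust (Ifnlr1). Lower PHD finger genes went from 3 to 1 at a mean of at least 5 FPKM and ranged from 2 to 3 with a library left out, and higher ones from 6 to 9 with TPM scaling. Lower genes of the NF-kB and resection list went from 3 to 1 with no minimum, to 2 at a mean of at least 5 FPKM, with TPM scaling, without trend or robust and with the replicate block, and ranged from 1 to 2 with a library left out. Higher genes of that list went from 5 to 4 in 9 alternatives. Rela lost its call with no minimum, with quantile normalization, without trend or robust, with the replicate block and in 5 of 6 fits with a library left out. Cab39l turned from 0.04 to -0.01 with quantile normalization and to -0.01 without Ad-PDK4 replicate 3, in a range of -0.01 to 0.1 with a library left out. Beyond fewer genes or libraries in a fit, the causes were not tested.

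Libraries of the same replicate number did not deviate together (correlations of -0.046, -0.0311 and -0.00129), so no sign of pairing by number was seen. With so few libraries in a group, these values cannot show that pairing was absent. With a replicate block the log2 fold changes of Phf11a, Phf11b and Phf11d were 4.31, 6.94 and 4.70, and 2759 genes were higher and 2626 lower, against 2928 and 2798 without it. Rela and Rpa2 lost their calls there, at limma adjusted p = 0.065 and 0.053. At this depth the control levels of Phf11a and Phf11b, at 0 to 2 reads, set the precision of their ratios, and Phf11c rested on 13 to 48 reads a library.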
